A study of Mus musculus with 6 samples.

Results

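The neuron formation genes Dcx, Sox2, Sox4, Sox11, Dlx1, Dlx2, Neurod1 and Eomes were read by symbol in libraries of sorted cells from the mouse cortex around an infarct. All 8 were found among the 24419 symbols of the table. The cells came from male wild-type C57BL/6N mice whose middle cerebral artery had been occluded for 60 min. Treated animals received 15-HETrE, a hydroxylated fatty acid derived from dihomo-gamma-linolenic acid, in intravenous injections at 24, 48 and 72 h after onset, with 600 ng in 150 µL of phosphate-buffered saline; the other animals received vehicle at the same times, and their ages are not stated in the labels. Tissue was taken at 4 days and cells were sorted as positive for Thy1 and negative for ACSA2, CD31, CD45 and O4. There were 3 libraries of each group, and nothing in the labels says that each came from a separate animal, so p-values cover no more than the scatter among the libraries, and part or all of that may be technical.

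New neurons arise in the adult mouse brain from stem cells that carry the transcription factor Sox2. Their progeny pass through a phase in which proneural and fate-setting factors act, Neurod1 and Eomes in the glutamatergic lineage and Dlx1 and Dlx2 in the GABAergic lineage of the subventricular zone, and then become migrating neuroblasts that hold Sox4, Sox11 and doublecortin. After cortical ischemia in rodents, neuroblasts of the subventricular zone are known to migrate toward the injury. Several of these genes are not particular to new neurons, since Sox2 is also active in astrocytes and the oligodendrocyte lineage, and Sox4 and Sox11 in precursors of oligodendrocytes.

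The libraries held 5405245 to 22558400 reads in genes, the 2 whose columns are named combined being the shallowest. They are called here by group and by the number in the column name, or as unnumbered or combined where the name has no number. A first prefix stands in the column names of 15-HETrE 1, vehicle 1 and vehicle 2, and a second in that of 15-HETrE unnumbered. The names of the combined libraries hold neither prefix, and these libraries were taken as a class by the word combined. What the prefixes and this word mean is not stated in the sources at hand. All 10 pan-neuronal markers had reads, with summed levels of 3232.5 to 6265 CPM (reads relative to the library total, with the authors' scaling) in 15-HETrE and 1898 to 3339 CPM in vehicle libraries. Markers that the sort was meant to leave behind were also present: the 7 oligodendrocyte markers summed to 15741 to 30735 CPM and 14690 to 22138 CPM, the 8 astrocyte markers to 1337 to 20712 CPM and 634 to 7605 CPM, in 15-HETrE and vehicle libraries. Others were lower, in the same order of groups. The 6 endothelial markers summed to 31.0 to 94.8 CPM and 88.3 to 199 CPM. The 8 microglia and macrophage markers summed to 29.2 to 84.3 CPM and 24.3 to 97.8 CPM. The 7 fibroblast markers summed to 102 to 1422 CPM in 15-HETrE and 174 to 8620 CPM in vehicle libraries.

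No member passed the test between 15-HETrE and vehicle. Dcx and Dlx1 lay higher in every 15-HETrE library than in any vehicle library, Sox4 lay lower in every 15-HETrE library, and Sox2, Sox11, Dlx2 and Neurod1 overlapped between groups. Eomes was close to absent. In bulk libraries such as these, more cells of a type and more RNA per cell cannot be told apart. The test was limma on log2(CPM + 1), a scale that understates fold changes of low genes, and it took in the 14523 genes whose mean over the 6 libraries reached 1 CPM, 7 of the 8 members among them. At an adjusted p of 0.05, 0 of the 7 passed, as did 0% of all genes tested, with a smallest adjusted p of 0.131 (limma); edgeR's quasi-likelihood test and DESeq2 on the recovered reads also called 0 members. At an unadjusted p under 0.05, 1 member, Dcx, remained in limma, on the higher side, against 9.5% of all genes tested, 4.27% higher and 5.23% lower; edgeR and DESeq2 each had 1 member there. The groups did not overlap for 3 of the 7 tested members, 2 higher and 1 lower in 15-HETrE, where this held for 15.2% of all genes tested, 6.84% higher and 8.32% lower. Of the 7, 6 had a positive log2 fold change, as did 51% of all genes tested, and the median was 0.33, against 0.02 for all genes tested.

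**Figure D1:**
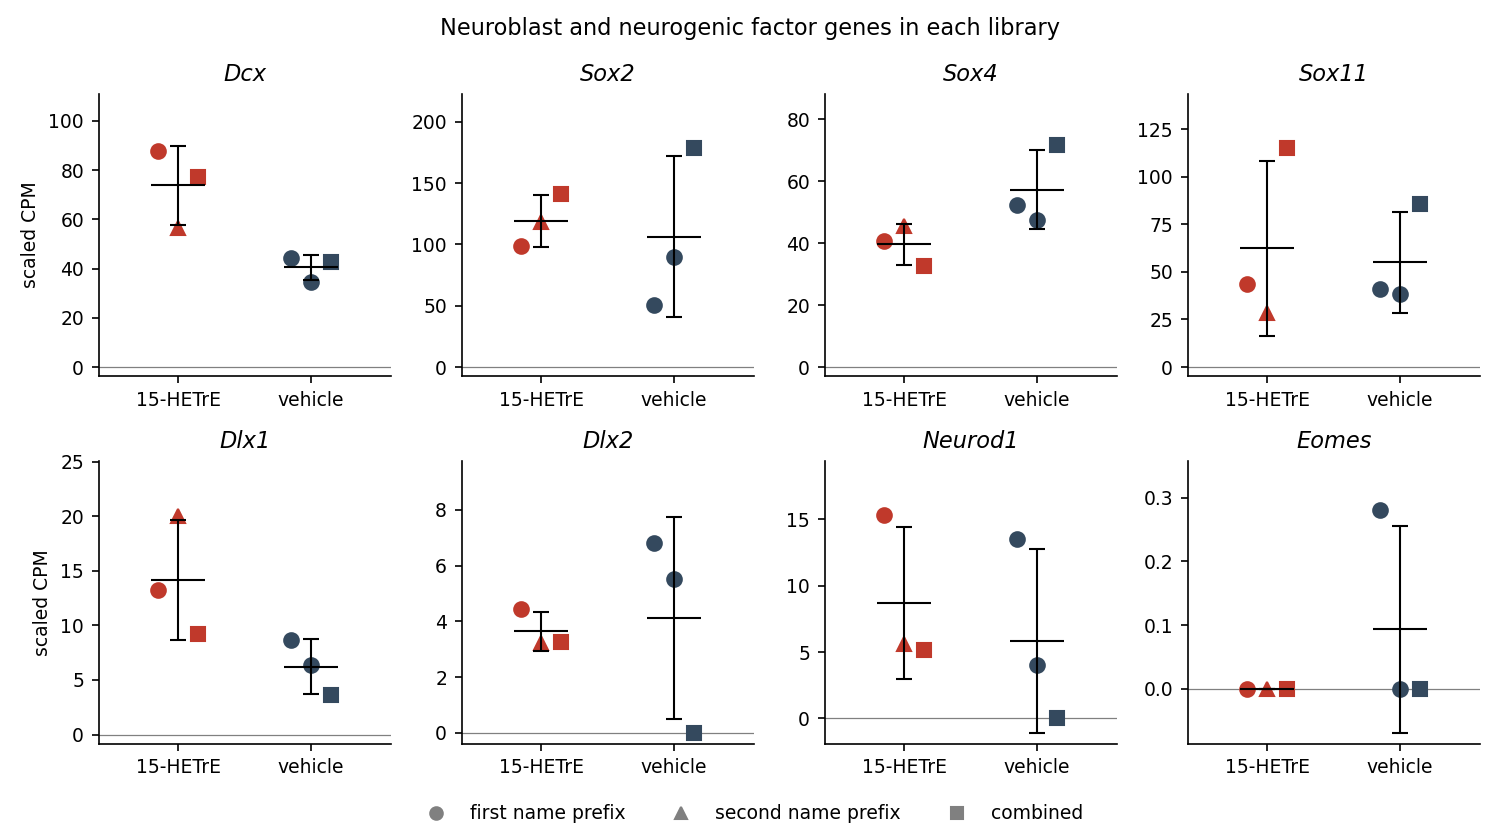
Scaled CPM of the 8 members in every library, with 15-HETrE left of vehicle. Each point is a library (circles, first name prefix; triangle, second; squares, combined), and the bar and whiskers are the mean ± SD of 3 libraries; Dcx, Sox4 and Dlx1 are the members with reads in all libraries whose groups stand apart.

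Sox2, the stem cell factor of the SoxB1 group, is encoded on chromosome 3 at 34650405 to 34652461 (GRCm38, plus strand, a single exon) inside the longer noncoding gene Sox2ot on the same strand, with 0 exon bases shared. It stood at 98.9, 118 and 141 CPM in libraries 15-HETrE 1, unnumbered and combined, against 50.7 (vehicle 1), 89.5 (vehicle 2) and 179 CPM (vehicle combined). Vehicle libraries held both the lowest and the highest value. The means were 119 ± 21.0 CPM in 15-HETrE and 106 ± 65.8 CPM in vehicle libraries (SD, n = 3 each), and the log2 fold change was 0.33 with a 95% interval of -0.57 to 1.24 (adjusted p 0.812, limma). It was -0.10 without vehicle 1. Between libraries of the first prefix the difference was 0.55, and between the combined libraries it was -0.34.

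The gene whose levels were most like those of Sox2 over the 6 libraries was Sox10, a factor of the oligodendrocyte lineage, with r = 0.998 on the log2 scale among 11370 genes searched. Sox10 had 274, 299 and 330 CPM in libraries 15-HETrE 1, unnumbered and combined, and 165, 247 and 408 CPM in libraries vehicle 1, 2 and combined. Both genes thus had their lowest value in vehicle 1 and their highest in vehicle combined. With 6 libraries and so many genes, a high r is a description of these libraries, which also differ in depth and cell makeup. The next were Sowahc (r = 0.996) and Josd2 (r = 0.995). The 8 oligodendrocyte precursor markers, which include Sox10, averaged 8.71, 8.39 and 8.90 in the 15-HETrE libraries and 8.07, 8.41 and 9.26 in the vehicle libraries in the same order (mean log2 level), again lowest in vehicle 1 and highest in vehicle combined. Sox2ot itself had 108, 168 and 134 CPM in 15-HETrE and 56.7, 79.8 and 92.6 CPM in vehicle libraries, a log2 fold change of 0.84 (adjusted p 0.457, limma), and its groups did not overlap.

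Eomes, a T-box factor of intermediate progenitors of glutamatergic neurons (chromosome 9, 118478212 to 118486132, GRCm38), had 0 reads in every 15-HETrE library, against 6, 0 and 0 reads in vehicle 1, vehicle 2 and vehicle combined. The 6 reads of vehicle 1 are 0.280 CPM. A count of 0 allows up to 3 reads, which is 0.137, 0.179 and 0.405 CPM in 15-HETrE 1, unnumbered and combined, and 0.135 and 0.540 CPM in vehicle 2 and vehicle combined, for counting error only. The gene failed the filter and was not tested, and a group difference was not detectable at this depth. Eomes also marks cytotoxic lymphocytes; of 10 T and NK cell markers, 7 had no read in any library, among them Cd3e, Cd3g and Cd3d, and the list summed to 0 CPM in every 15-HETrE library and 0 to 2.02 CPM in the vehicle libraries.

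Neurod1, a basic helix-loop-helix factor that drives neuronal differentiation (chromosome 2, 79452521 to 79456751, GRCm38, minus strand), was low and uneven. It stood at 15.3, 5.61 and 5.14 CPM in libraries 15-HETrE 1, unnumbered and combined, and at 13.5, 4.05 and 0 CPM in libraries vehicle 1, 2 and combined. The highest library of each group was number 1, and the groups overlapped. In reads these were 337, 94 and 38 in 15-HETrE and 289, 90 and 0 in vehicle libraries. The log2 fold change was 1.06 with a 95% interval of -1.04 to 3.16 (adjusted p 0.741, limma), and it was 0.03 without vehicle combined, the library with no Neurod1 read. The mean log2 level of the 8 excitatory neuron markers differed by 1.03, with overlapping groups. Neurod1 minus that mean differed by 0.03, also with overlap, and the part of these markers in the Neurod1 difference was not tested. Its annotated exons share 201 bases with Cerkl on the same strand, 7.37% of the Neurod1 exons, and Cerkl stood at 10.4 CPM in vehicle combined and at 0.360 to 4.06 CPM in the other libraries; reads in that stretch could belong to either gene. The paralogs Neurod2 and Neurod6, which are kept on in mature cortical glutamatergic neurons, had 38.0 ± 19.4 and 23.0 ± 12.6 CPM in 15-HETrE and 27.7 ± 18.3 and 16.3 ± 8.95 CPM in vehicle libraries, with log2 fold changes of 0.49 and 0.41 (adjusted p 0.782 and 0.845, limma).

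Dlx1 and Dlx2 encode homeodomain factors of the GABAergic lineage. They lie end to end on chromosome 2, Dlx1 at 71528113 to 71533981 on the plus strand and Dlx2 at 71543408 to 71546754 on the minus strand (GRCm38), with 9426 bases between them. Because paralogs can share reads, their most similar coding stretches, 90 bases each, are shown here from the GENCODE M21 transcripts, in the sense of the gene, with a longest run of identical bases within the stretch in capitals.
Dlx1: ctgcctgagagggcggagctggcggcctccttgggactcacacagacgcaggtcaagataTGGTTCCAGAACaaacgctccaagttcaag
Dlx2: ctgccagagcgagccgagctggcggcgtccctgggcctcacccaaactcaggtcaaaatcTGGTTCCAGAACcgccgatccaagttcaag
Of the 90 bases 74 were identical, the longest shared run within them was 12 bases, and the longest anywhere in the coding sequences was 15 bases, so any stretch of more than 15 coding bases differs between the genes.

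Dlx1 stood at 13.2, 20.1 and 9.19 CPM in libraries 15-HETrE 1, unnumbered and combined, against 8.65, 6.39 and 3.60 CPM in libraries vehicle 1, 2 and combined. The lowest 15-HETrE library lay just above the highest vehicle library, so the groups did not overlap. They rested on 291, 336 and 68 reads in 15-HETrE and 185, 142 and 20 reads in vehicle libraries. The mean was 14.2 ± 5.49 CPM in 15-HETrE and 6.21 ± 2.53 CPM in vehicle libraries (SD, n = 3 each), a log2 fold change of 1.07 (95% interval -0.17 to 2.32) that did not pass (adjusted p 0.589, limma). For the first prefix alone it was 0.76, and for the combined libraries 1.15. The antisense gene Dlx1as overlaps 6.21% of the Dlx1 exons and stood at 0 to 2.69 CPM; whether reads were counted by strand is not stated in the sources at hand.

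Beside Dlx1, the 9 inhibitory neuron markers averaged 5.57, 4.997 and 5.09 in 15-HETrE and 5.05, 4.55 and 4.56 in vehicle libraries (mean log2 level), with 15-HETrE unnumbered below vehicle 1. Their summed level was 431 to 789 CPM in 15-HETrE and 328 to 576 CPM in vehicle libraries, and none of the 9 was at 0. Taken as the difference between the log2 level of Dlx1 and that mean, Dlx1 lay at -1.74, -0.60 and -1.74 in 15-HETrE and at -1.78, -1.66 and -2.36 in vehicle libraries, and the values of 15-HETrE 1 and combined fell within the vehicle range. Whether these markers account for part of the Dlx1 difference was not tested.

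Dlx2 stood at 4.46, 3.22 and 3.24 CPM in 15-HETrE and at 6.82, 5.53 and 0 CPM in vehicle libraries, from 98, 54 and 24 reads and from 146, 123 and 0 reads. Both numbered vehicle libraries lay above all 15-HETrE libraries and vehicle combined lay below them, so the groups overlapped. A count of 0 in vehicle combined allows up to 0.540 CPM. The mean was 3.64 ± 0.71 CPM in 15-HETrE and 4.12 ± 3.63 CPM in vehicle libraries, while the log2 fold change was 0.31 with a 95% interval of -1.57 to 2.20 (adjusted p 0.928, limma), so the sign depended on the scale. It was -0.63 without vehicle combined. The paralogs Dlx5 and Dlx6, which act after Dlx1 and Dlx2 in the forebrain, failed the filter with at most 2.50 and 1.96 CPM in any library, and the noncoding gene Dlx6os1 had 18.7 ± 11.5 CPM in 15-HETrE and 7.54 ± 3.29 CPM in vehicle libraries, with overlapping groups (adjusted p 0.637, limma).

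Sox4 and Sox11 are the SoxC factors of differentiating neurons, which switch on neuronal genes in newborn cells. Sox4 lies on chromosome 13 at 28948919 to 28953713 and Sox11 on chromosome 12 at 27334264 to 27342574 (GRCm38), both on the minus strand with a single exon. Their coding sequences hold a longer common run than those of the Dlx pair, which is why the most similar 90 bases are shown, again 5′ to 3′ from the GENCODE M21 transcripts with the longest identical run within the stretch in capitals.
Sox4: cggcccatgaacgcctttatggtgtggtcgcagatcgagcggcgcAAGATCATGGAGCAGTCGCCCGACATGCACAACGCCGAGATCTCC
Sox11: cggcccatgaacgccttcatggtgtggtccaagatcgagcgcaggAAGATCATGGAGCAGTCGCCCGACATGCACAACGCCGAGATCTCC
Of these 90 bases 84 were identical, and the run in capitals goes on past the stretch to 48 bases. Any read that falls wholly inside it could belong to either gene; the run is short beside the 4795 and 8311 exon bases of Sox4 and Sox11. Sox2 shared at most 16 bases in a row with Sox4 and 22 with Sox11.

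Sox4 stood at 40.6, 45.5 and 32.6 CPM in libraries 15-HETrE 1, unnumbered and combined, against 52.2, 47.6 and 71.6 CPM in libraries vehicle 1, 2 and combined. All 15-HETrE libraries lay below all vehicle libraries, with 15-HETrE unnumbered and vehicle 2 close together. The mean was 39.5 ± 6.51 CPM in 15-HETrE and 57.1 ± 12.7 CPM in vehicle libraries (SD, n = 3 each). The log2 fold change was -0.51 with a 95% interval of -1.18 to 0.16 (adjusted p 0.620, limma). The first prefix alone gave -0.29 and the combined libraries gave -1.11. Relative to the mean log2 level of the 8 oligodendrocyte precursor markers, Sox4 lay at -3.33, -2.85 and -3.84 in 15-HETrE libraries. In vehicle libraries it lay at -2.33, -2.81 and -3.08, so that the groups overlapped, with a difference of -0.60. The part of these markers in the Sox4 levels was not tested. The lincRNA gene Gm26735 is annotated on the opposite strand over 54.6% of the Sox4 exon. Its symbol was absent from the deposited values, so its level could not be read. Reads of both strands cannot be told apart if strand was not used in counting.

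Sox11 was highest in the combined libraries of both groups. It stood at 43.4, 28.6 and 115 CPM in libraries 15-HETrE 1, unnumbered and combined, and at 41.0, 38.6 and 85.8 CPM in libraries vehicle 1, 2 and combined. The other 4 libraries lay between 28.6 and 43.4 CPM. The log2 fold change was 0.03 with a 95% interval of -1.09 to 1.15 (adjusted p 0.990, limma), an interval that holds differences of more than 1 log2 unit either way. It was -0.53 without 15-HETrE combined, -0.13 without vehicle 1, -0.18 without vehicle 2 and -0.17 without both combined libraries. The 8 astrocyte markers were also highest in the combined libraries, at a mean log2 level of 6.38, 5.85 and 9.07 in 15-HETrE and 5.57, 4.90 and 8.04 in vehicle libraries. So were the 8 oligodendrocyte precursor markers, at 8.90 in 15-HETrE combined and 9.26 in vehicle combined. The 8 microglia and macrophage markers reached 2.68 and 3.10 there, with 15-HETrE unnumbered close at 2.67. The part of these cell types in the Sox11 levels was not tested. Sox12, the other SoxC gene, had 7.94 ± 2.95 CPM in 15-HETrE and 10.8 ± 0.60 CPM in vehicle libraries (adjusted p 0.803, limma). By likeness, Vsig10 (r = 0.999), Zfp84 (r = 0.998) and Acsbg1 (r = 0.997) came first for Sox11, and Parn (r = 0.992), Asb7 (r = 0.989) and Impdh1 (r = 0.988) for Sox4.

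Dcx encodes doublecortin, a microtubule-binding protein of migrating neuroblasts and immature neurons, on chromosome X at 143855842 to 143933311 (GRCm38, minus strand, 7 exon blocks of 12647 bases in all). It stood at 87.9, 56.3 and 77.2 CPM in libraries 15-HETrE 1, unnumbered and combined, against 44.2, 34.7 and 42.6 CPM in libraries vehicle 1, 2 and combined. Every 15-HETrE library lay above every vehicle library, and the spread within the vehicle group was narrow. The mean was 73.8 ± 16.1 CPM in 15-HETrE and 40.5 ± 5.07 CPM in vehicle libraries (SD, n = 3 each), 1.82 times the vehicle mean, from at least 237 reads per library. The log2 fold change was 0.83 with a standard error of 0.29 and a 95% interval of 0.19 to 1.48 (p 0.0164, adjusted p 0.460, limma). In the order of p it stood at 510 among the 14523 genes, and 22.1% of all genes tested had a larger absolute fold change.

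The Dcx difference was 1.15 for the first prefix alone and 0.84 for the combined libraries. With library weights, which gave vehicle combined the least weight (0.206) and vehicle 2 the most (3.75), it was 1.10 and passed (adjusted p 0.00370, limma), as did 16.7% of all genes tested, 7.29% on the higher side. Over all alternatives the adjusted p ran from 0.00370 to 0.912. Dcx was the sole member to pass in any alternative tried.

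**Figure D2:**
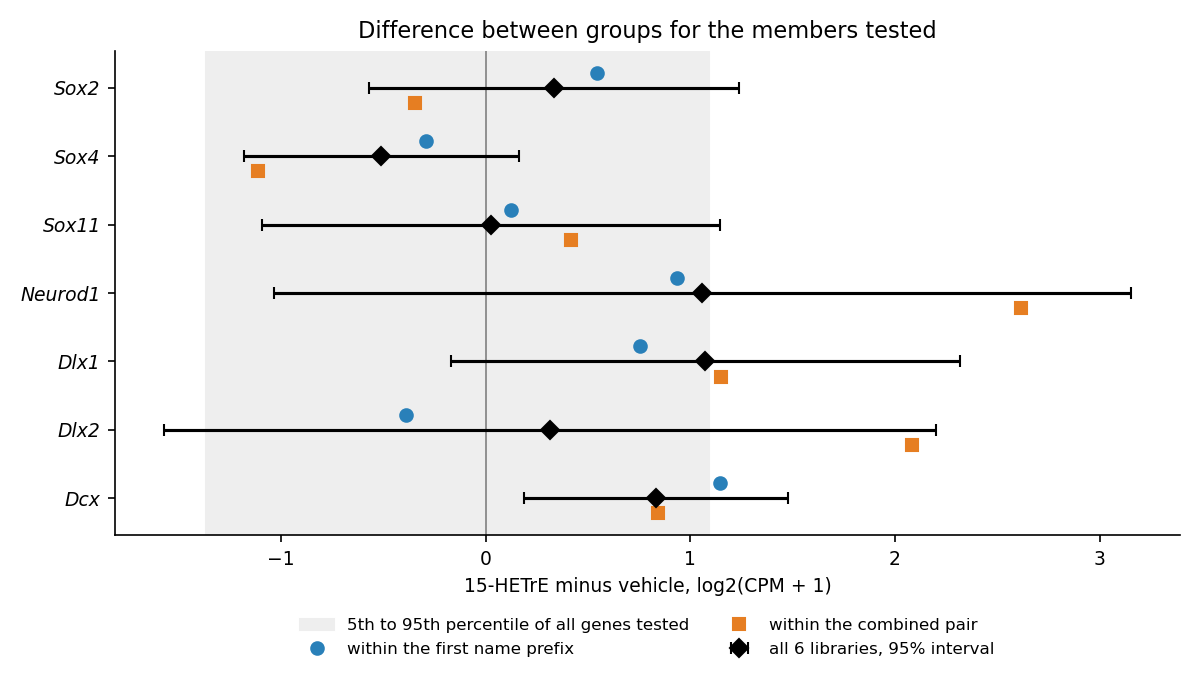
Difference between 15-HETrE and vehicle on the log2(CPM + 1) scale for the 7 members tested: black diamonds with 95% intervals from limma over all 6 libraries, circles for the first name prefix alone and squares for the combined libraries. The grey band spans the 5th to the 95th percentile of all genes tested, -1.37 to 1.09; the interval of Dcx alone excludes 0, and Sox2 and Dlx2 change sign between the circle and the square.

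The mean log2 level of the 10 pan-neuronal markers was 8.21, 7.49 and 8.01 in 15-HETrE and 7.43, 6.52 and 6.83 in vehicle libraries, and this mean did not overlap between groups, whereas the summed CPM did. All 10 had a positive fold change, as did 51% of all genes tested, and none was at 0. But single genes stood apart between groups in 3 of the 10, where 15.2% of all genes tested did. By adjusted p, 0 of the 10 passed in limma and 0 in edgeR. DESeq2 called 1, Nefl, and 165 of all 14523 genes tested. Limma with library weights called 9, where it called 16.7% of all genes tested. In limma without weights 6 had an unadjusted p under 0.05, against 9.5% of all genes tested. The difference of the list mean was 0.98, against 0.83 for Dcx. Taken as its log2 level minus that mean, Dcx lay at -1.73, -1.65 and -1.73 in 15-HETrE and at -1.93, -1.36 and -1.38 in vehicle libraries, so that relative to the pan-neuronal markers the groups overlapped, with a difference of -0.14. The part of the pan-neuronal level in the Dcx difference was not tested. The genes most like Dcx were Gucy1a2, Cdk5r1 and Dlgap2, each with r = 0.988 to 0.989 over the 6 libraries; Cdk5r1, the activator of the neuronal kinase Cdk5, also stood on the neuroblast list. Those most like Dlx1 were Usp45 (r = 0.994), Srsf12 (r = 0.985) and Slc16a7 (r = 0.982), and among those most like Neurod1 were Exoc3 (r = 0.992) and Kcnh1 (r = 0.991).

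**Figure D3:**
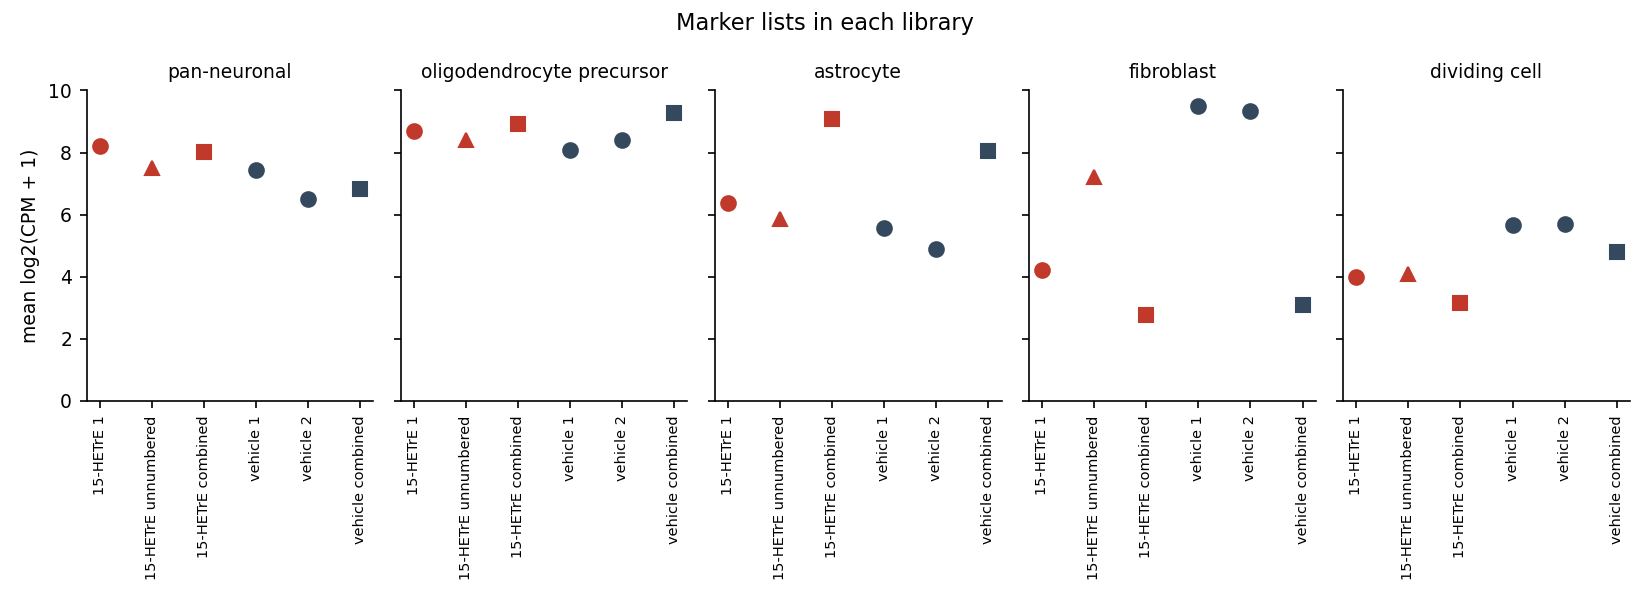
Mean log2(CPM + 1) of 5 marker lists in each library, red for 15-HETrE and dark blue for vehicle, with circles for the first name prefix, a triangle for the second and squares for combined. The mean of the pan-neuronal list lies higher in 15-HETrE and that of the dividing cell list lower, without overlap. The astrocyte and oligodendrocyte precursor lists are highest in both combined libraries, and the fibroblast list in vehicle 1 and vehicle 2.

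Dividing cell markers lay on the lower side. The 9 genes averaged 3.99, 4.09 and 3.16 in 15-HETrE and 5.66, 5.70 and 4.78 in vehicle libraries (mean log2 level) and summed to 154 to 235 CPM in 15-HETrE and 523 to 683 CPM in vehicle libraries, without overlap. All 9 had a negative fold change, where 51% of all genes tested had a positive one. For 8 of the 9 the groups did not overlap, all lower in 15-HETrE, against 8.32% of all genes tested on that side. Of the 9, 0 passed in limma without weights and 0 in edgeR. DESeq2 called 2, Mcm6 and Mki67, and 165 of all 14523 genes tested. In limma 7 had an unadjusted p under 0.05, against 9.5% of all genes tested, 5.23% on the lower side. With library weights limma called 7 of the 9, where it called 16.7% of all genes tested. Which cells carried these transcripts was not tested.

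Compared per kilobase of exon, which allows levels to be set beside each other, Sox2 was the highest member, at 58.0 ± 10.2 CPM per kb in 15-HETrE and 51.7 ± 32.0 CPM per kb in vehicle libraries, and it exceeded Sox4 in all 6 libraries without overlap of the ranges. Sox4 followed with 8.25 ± 1.36 and 11.9 ± 2.65 CPM per kb in 15-HETrE and vehicle libraries. Sox11 had 7.50 ± 5.55 and 6.63 ± 3.20 CPM per kb, and Dcx 5.84 ± 1.27 and 3.20 ± 0.40 CPM per kb, in the same order of groups. The ranges of Sox4 and Sox11, and of Sox11 and Dcx, overlapped, and Sox11 lay above Dcx in 4 of 6 libraries. Below them came Neurod1 with 3.19 ± 2.11 and 2.14 ± 2.54 CPM per kb, Dlx1 with 2.62 ± 1.02 and 1.15 ± 0.47 CPM per kb, and Dlx2 with 1.28 ± 0.25 and 1.44 ± 1.27 CPM per kb in 15-HETrE and vehicle libraries. The ranges of these 3 overlapped, and Dlx1 exceeded Dlx2 in 4 of 6 libraries. Exon length was taken over all annotated transcripts, which may be longer than those present.

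**Figure D4:**
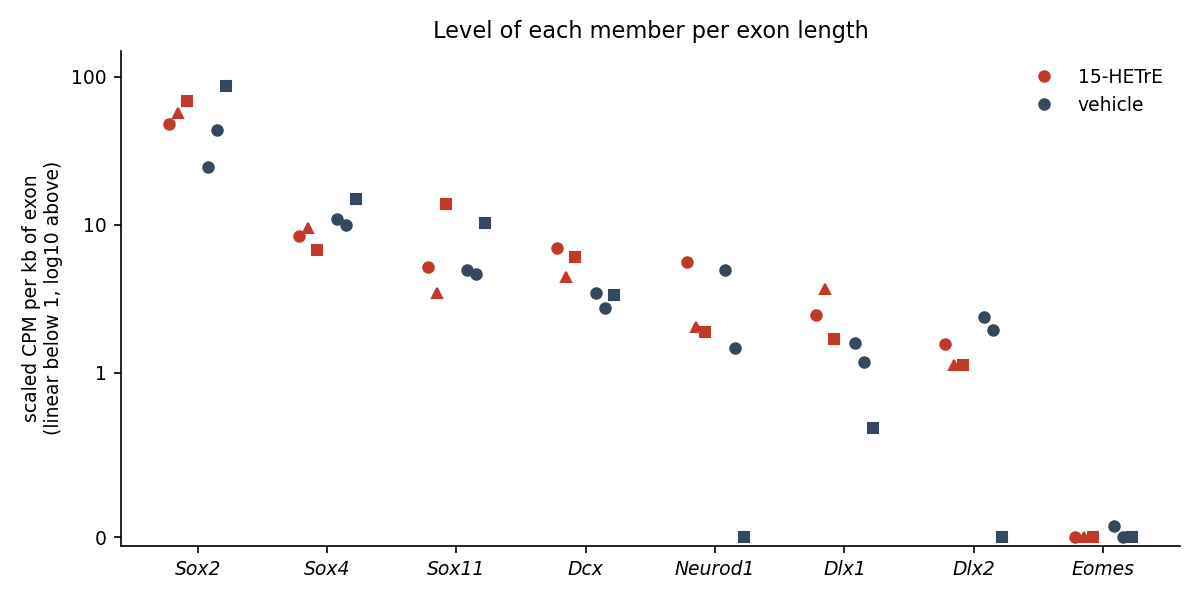
Scaled CPM per kilobase of exon for the 8 members, one point per library, 15-HETrE in red left of vehicle in dark blue, with circles, triangles and squares for the first, second and combined names. The axis is linear below 1 and logarithmic above; Sox2 stands apart at 24.7 to 87.0 CPM per kb, and Eomes lies at 0 in 5 of 6 libraries.

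Other genes of neuron formation were taken from 3 lists. Among 13 neural progenitor genes, all tested, 0 passed in either direction in limma without weights or in edgeR, 4 had an unadjusted p under 0.05 in limma, against 9.5% of all genes tested, and DESeq2 called 1, Nes. With library weights limma called 5, Gli3, Id4, Nes, Prom1 and Sox3, where it called 16.7% of all genes tested. Of the 13, 8 had a positive and 5 a negative fold change, with a median of 0.57, and for 5, or 38.5%, the groups did not overlap, against 15.2% of all genes tested. Nes, the intermediate filament nestin of progenitors, which is also made by activated vascular cells, had 11.97, 34.8 and 28.5 CPM in 15-HETrE and 139, 137 and 56.8 CPM in vehicle libraries, a log2 fold change of -2.12 (adjusted p 0.334, limma). For the first prefix alone the difference was -3.42 and for the combined libraries -0.97. In the same order, the fibroblast list differed by -5.22 and -0.33 (mean log2 level), the endothelial list by -0.91 and -0.59, and the dividing cell list by -1.69 and -1.63. The part of other cell types was not tested. Without overlap on the other side were Sox3, a SoxB1 paralog of Sox2, with 8.78 ± 3.28 CPM in 15-HETrE and 1.58 ± 1.23 CPM in vehicle libraries, Prom1, the membrane protein prominin, with 32.7 ± 18.9 and 7.04 ± 4.24 CPM, Id4, an inhibitor of helix-loop-helix factors, with 24.2 ± 29.3 and 3.24 ± 1.23 CPM, and Pax6 with 6.02 ± 0.89 and 2.88 ± 0.78 CPM. Their log2 fold changes were 2.02, 1.99, 1.94 and 0.87 (adjusted p 0.457, 0.422, 0.507 and 0.663, limma). For the first prefix alone they were 1.29, 1.28, 1.42 and 0.91, and for the combined libraries 3.52, 1.99, 3.52 and 0.45. Sox3 had 1 read in vehicle combined. The most abundant others, Fabp7, Sox9, Gli3 and Hes1, overlapped between groups, with log2 fold changes of -0.25, 0.04, -1.02 and -0.12. The third SoxB1 gene, Sox1, had 16.2 ± 16.7 CPM in 15-HETrE and 8.88 ± 7.13 CPM in vehicle libraries, with overlapping groups.

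Of 15 proneural and neuronal differentiation factors, 12 were tested and 0 passed in limma without weights, edgeR or DESeq2. In limma 2 had an unadjusted p under 0.05, against 9.5% of all genes tested. With library weights limma called 2, Myt1l and Tbr1, where it called 16.7% of all genes tested. The median log2 fold change of the 12 was 0.40. The groups stood apart for 1, or 8.33%, against 15.2% of all genes tested. That gene was Bhlhe22, a factor of cortical projection neurons, with 29.5 ± 3.83 CPM in 15-HETrE and 11.6 ± 9.70 CPM in vehicle libraries (log2 fold change 1.76, adjusted p 0.504, limma). Its difference was 0.66 for the first prefix alone and 3.83 for the combined libraries, where vehicle combined had 8 reads. The genes with the highest levels, Tcf4, Myt1l, Prox1, Tbr1 and Myt1, overlapped between groups, and their log2 fold changes were -0.04, 0.80, -0.26, 0.50 and -0.23. Tbr1, the T-box factor that follows Eomes in the glutamatergic lineage and persists in deep-layer neurons, had 109 ± 51.1 CPM in 15-HETrE and 70.9 ± 16.7 CPM in vehicle libraries, where Eomes was nearly absent. The proneural genes Neurog1, Neurog2 and Neurod4 failed the filter, with at most 1, 25 and 13 reads in a library. Their highest levels were 0.135 and 3.24 CPM in 15-HETrE combined and 0.585 CPM in vehicle 2.

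Of 30 genes of migrating neuroblasts and immature neurons, 26 were tested and 0 passed in limma without weights, edgeR or DESeq2. In limma 3 had an unadjusted p under 0.05, against 9.5% of all genes tested. With library weights limma called 6, Cdk5r1, Nrep, Dpysl3, Meis2, Dclk1 and Marcksl1, where it called 16.7% of all genes tested. The tested genes were divided, with 15 positive and 11 negative fold changes and a median of 0.11, and the groups did not overlap for 5, or 19.2%, near the 15.2% of all genes tested. Dclk1, a paralog of Dcx, had 656 ± 148 CPM in 15-HETrE and 320 ± 96.8 CPM in vehicle libraries (log2 fold change 1.05, adjusted p 0.394, limma), Cdk5r1 had 155 ± 43.1 and 84.3 ± 16.3 CPM (0.85, adjusted p 0.460, limma), and Pafah1b1, whose product Lis1 works with dynein in neuronal migration, had 696 ± 31.0 and 527 ± 56.8 CPM (0.41, adjusted p 0.618, limma). On the other side, Dpysl3, a collapsin response mediator of growing axons, had 86.7 ± 4.65 CPM in 15-HETrE and 172 ± 53.1 CPM in vehicle libraries (-0.93, adjusted p 0.422, limma), and Marcksl1 had 63.9 ± 4.54 and 84.5 ± 14.5 CPM (-0.39, adjusted p 0.656, limma). The other Dcx paralog on the list, Dclk2, had 41.1 ± 22.3 CPM in 15-HETrE and 36.1 ± 3.86 CPM in vehicle libraries, with overlapping groups. The abundant adhesion molecule Ncam1 and the tubulin regulator Stmn1 also overlapped, with log2 fold changes of 0.26 and 0.52.

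A pair of neuroblast genes had few reads. Igfbpl1, a marker of newborn neurons, had 0 reads in every 15-HETrE library and 1, 3 and 23 reads in vehicle 1, vehicle 2 and vehicle combined. In these vehicle libraries, which differ in depth, its level was 0.0467, 0.135 and 4.14 CPM. Prokr2, a receptor used by neuroblasts on their way to the olfactory bulb, had 56, 0 and 0 reads in 15-HETrE and 15, 15 and 0 reads in vehicle libraries. Both failed the filter and were not tested, as did Dlx5 and Dlx6.

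**Figure D5:**
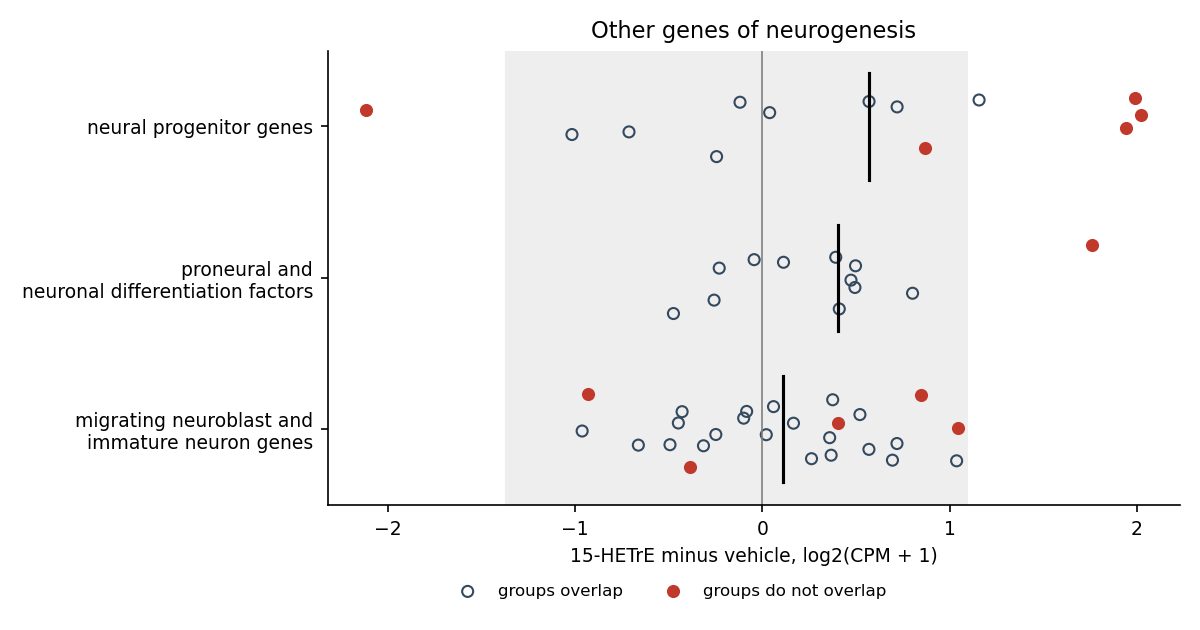
Log2 fold changes, 15-HETrE minus vehicle, of the tested genes of 3 lists of neuron formation, one point per gene, filled red where the groups do not overlap and open where they do. Black lines are the medians, 0.57, 0.40 and 0.11, and the grey band is the 5th to 95th percentile of all genes tested; no gene passed in limma without library weights, the fit plotted.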

How the data were processed

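The tools named, per the submitters' processing notes, are featureCounts, HISAT2, Trimmomatic and edgeR, with the build mm10; no source at hand states versions, settings, annotation or strand use. The deposited values are a signal, gene counts that the authors scaled to CPM by a factor per library. This is seen in the values, of which 100% are whole multiples of the smallest value above 0 in their column, within 1e-04 reads. Dividing by that value recovered the reads. Libraries were placed in groups by column names, and 0 other columns were present. No pair of libraries agreed within sampling noise (chi-square per degree of freedom 68.0 or more).

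Values were fitted as log2(CPM + 1), a pseudocount of 1, with limma 3.58.1 in R 4.3.3, group as the sole term, a variance trend and a filter at a mean of 1 CPM (the unit signal gave the test planned for CPM). All p-values are two-sided, adjusted after Benjamini and Hochberg over the genes tested, at a threshold of 0.05. Alternatives included edgeR 4.0.16 and DESeq2 1.42.0 on recovered reads. Scripts were tested on simulated counts.

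The members and lists were chosen with earlier results of these data known. Named are all members, their paralogs, the 5 list genes with the highest mean, list genes without overlap, and, of the 3 genes of at least 5 CPM most like each member of at least 5 CPM, all but 1 that is not reported here; Sox2ot, Dlx1as, Cerkl and Gm26735 were added for their position, and Prokr2, Neurog1, Neurog2, Dlx6os1, Nrep, Meis2, Nefl, Mcm6 and Mki67 from the lists after their values were seen. GENCODE M21 gave positions, exon lengths and sequences, on GRCm38 (mm10).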

Additional observations from a re-analysis of the deposited data

How the results depend on the processing

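Of 139 member values under 20 alternatives, 128 kept their direction and their side of the threshold, 10 changed sign and 1, Dcx with library weights, newly passed. Dcx (0.70 to 1.10), Dlx1 (0.76 to 1.33), Sox4 (-0.64 to -0.21) and Neurod1 (0.03 to 2.12) kept their sign in every alternative run. Dlx2 reversed with library weights (-0.33), in edgeR (-0.19), in DESeq2 (-0.16), without both combined libraries (-0.57) and without vehicle combined (-0.63). Sox11 reversed without 15-HETrE combined (-0.53), vehicle 1 (-0.13), vehicle 2 (-0.18) or both combined libraries (-0.17), and Sox2 without vehicle 1 (-0.10). With 1 library left out at a time, Dlx2 ran from -0.63 to 0.85, Sox11 from -0.53 to 0.45 and Sox2 from -0.10 to 0.80. The cause was not tested.

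Over all genes, library weights gave 2425 calls, 1059 higher and 1366 lower, and 1 member. DESeq2 gave 165 (35 and 130), the name prefix as a batch term 8 (1 and 7) and leaving out both combined libraries 204 (3 and 201), each with 0 members. In that batch term the combined libraries, which hold neither prefix, formed a class of their own. Leaving out 1 library at a time gave 0 to 110 calls, 0 to 2 higher and 0 to 108 lower, with calls solely without vehicle combined, and 0 members. No paired analysis was possible because the columns of both groups share 1 replicate number, and the planned replicate block was not run; the filter at 5 CPM left Dlx2 out. Depth limits what can be read for Eomes, which had 0 reads in 5 of 6 libraries, and the reason for these zeros was not tested. Why Dlx2 and Neurod1 had 0 reads in vehicle combined, where the floor is 0.540 CPM, was not tested either.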
